A study of Mus musculus with 28 samples.

Results

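Whether a gene enters or leaves H3K9me2 domains on loss of EHMT2 was compared between mouse embryonic stem cells (mESCs) and 2-cell-like cells (2CLCs). For each protein-coding gene start on chromosomes 1 to 19, the change from DMSO to dTAG was read separately in each state as stay in, leave, enter or stay out, and the members described here are the starts whose change differed between the states. There were 2944 such discordant starts among 20807, or 14.1% of all starts and 43.0% of the 6854 starts that lay in a domain of at least 1 of the 4 sets. The remaining 17863 starts made the same transition in both states.

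H3K9me2 is a dimethyl mark on lysine of histone H3 that EHMT2 (G9a) and its partner EHMT1 (GLP) place over broad stretches of repressed chromatin. Such stretches are rich in gene clusters used in other tissues, including olfactory receptors. 2CLCs are a rare and transient state of mESC cultures in which MERVL retroviral elements and genes of zygotic genome activation such as Zscan4 are active.

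The sorted libraries came from EHMT2-dTAG-mcherry MERV-GFP cells, a reporter line of BL6/129 hybrid genotype used as 1 clone, in which the endogenous EHMT2 carries a degron. Cells in FBS/LIF were given DMSO or the degrader dTAG-13 for 72 h and sorted by MERVL-GFP into GFP-negative mESCs and GFP-positive 2CLCs, so that the control cells carry the degron and the reporter as well, and about the same number of cells was collected for each chromatin precipitation with antibody ab1220. Per the labels, the retinoic acid receptor agonist TTNBP was given in 2 of the replicates, which are not named, to raise the share of GFP-positive cells. The methods of the study name it for the sorted cells without that limit, and its part in any value below was not tested. The 4 conditions have 3 libraries each, but a single list of domain positions was used for each condition, so no value below has a replicate, no test was made between conditions, and the depth behind the lists is unknown. The lists hold no expression values, so the sorted states could not be checked against marker genes.

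The 4 lists gave similar numbers of gene starts under DMSO and more under dTAG, above all in 2CLCs. In mESCs, 4453 starts (21.4%) lay in domains under DMSO and 4737 (22.8%) under dTAG. In 2CLCs the numbers were 4593 (22.1%) and 5302 (25.5%). The lists held 3870 domains in each DMSO condition on these chromosomes, 6770 in mESC dTAG and 8281 in 2CLC dTAG. A domain is called from percentiles of the ratio of precipitated to input signal, so being in a domain is a position and not a level of the mark. Whether the percentiles were set within each condition is not given. The paper reports lower H3K9me2 in both cell states after depletion, so an entry under dTAG cannot be read as a rise in the mark.

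**Figure D1:**
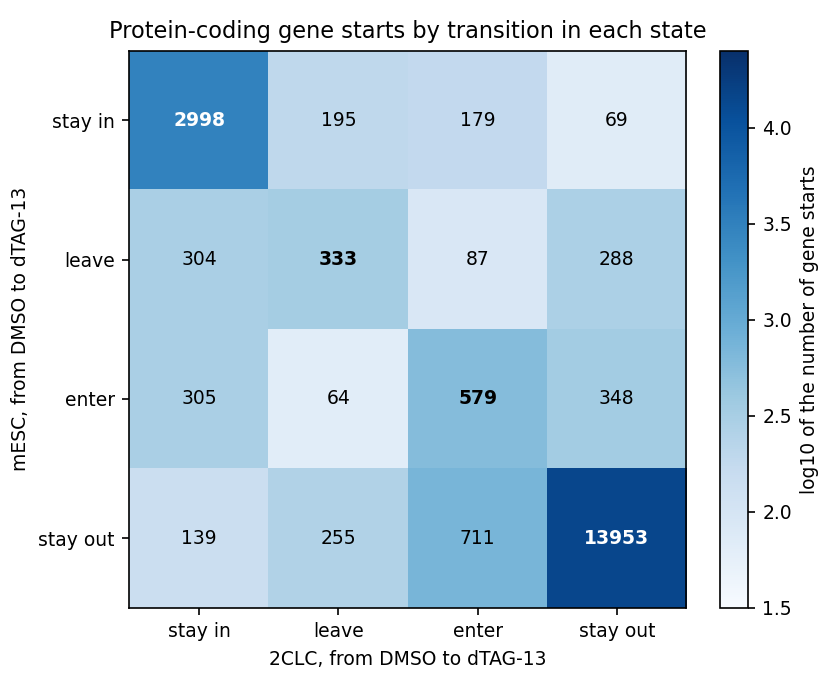
Numbers of protein-coding gene starts by transition in mESCs (rows) and 2CLCs (columns), with the shade giving the log10 of the number and concordant cells in bold. The 2998 starts that stayed in and the 13953 that stayed out in both states made up most starts, and the largest discordant cell holds the 711 starts that stayed out in mESCs and entered in 2CLCs.

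Of all starts that moved, fewer than 1 in 2 made the same move in the other state, although among those with a clearance (the distance to the nearest domain edge over the 4 lists) of at least 10 kb 53.3% of the starts that left in 2CLCs and 50.2% of those that entered in mESCs did. The starts that moved include those whose position under DMSO already differed between the states, which could not make the same move. In mESCs 1012 starts left, and 333 of them (32.9%, Wilson 95% interval 30.1 to 35.9%) left in 2CLCs too. The same 333 were 39.3% (36.1 to 42.6%) of the 847 that left in 2CLCs. In mESCs 1296 starts entered, and 579 of them (44.7%, 42 to 47.4%) entered in 2CLCs too. These were 37.2% (34.8 to 39.6%) of the 1556 that entered in 2CLCs. Among starts in domains in both DMSO lists, more left in both states (333) than in mESCs only (304) or in 2CLCs only (195). Among starts outside domains in both DMSO lists, 579 entered in both states, 348 in mESCs only and 711 in 2CLCs only. The intervals treat gene starts as separate trials and cover counting error only, although neighbouring genes share domains and cultures were not compared.

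What the other starts did in the second state differed by direction. Of the 1012 that left in mESCs, 304 stayed in in 2CLCs, 288 (28.5%) were outside domains in 2CLCs already under DMSO and stayed out, and 87 (8.6%) entered. Of the 1556 that entered in 2CLCs, 711 (45.7%) stayed out in mESCs, 179 (11.5%) were in domains in mESCs throughout, and 87 (5.59%) left. Altogether 2585 starts moved in 1 state only, 912 moved the same way in both, 151 moved in opposite directions and 208 lay in a domain in 1 state only under both treatments.

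The discordant starts fall into 4 kinds by where the states differed. In 1558 (52.9%) the states matched under DMSO and differed under dTAG. In 1027 (34.9%) they differed under DMSO and matched under dTAG. In 208 (7.07%) they differed under both treatments without moving, and in 151 (5.13%) they differed under both with opposite moves.

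To compare the states from the same point of departure, the starts with the same position under DMSO in both were taken first. Among the 15591 starts outside domains in both DMSO lists, 711 entered in 2CLCs only, or 4.56% (4.24 to 4.90%), and 348 entered in mESCs only, or 2.23% (2.01 to 2.48%). Another 579 (3.71%) entered in both states. The share that entered in 2CLCs only was the higher on 19 of 19 chromosomes, with a median over chromosomes of 4.71% (2.56% on chromosome 15 to 9.34% on chromosome 13) against 2.35% (1.05% on chromosome 19 to 3.57% on chromosome 13) for mESCs only.

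Departures ran the other way. Among the 3830 starts in domains in both DMSO lists, 304 left in mESCs only, or 7.94% (7.12 to 8.84%), and 195 left in 2CLCs only, or 5.09% (4.44 to 5.83%). A further 333 (8.69%) left in both states. This difference was less even along the genome, since the share was higher for mESCs on 12 chromosomes, higher for 2CLCs on 4 and equal on 3. On chromosome 18, 20.3% of these starts left in mESCs only against 7.25% in 2CLCs only, while on chromosome 14 the shares were 4.78% and 8.26%.

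**Figure D2:**
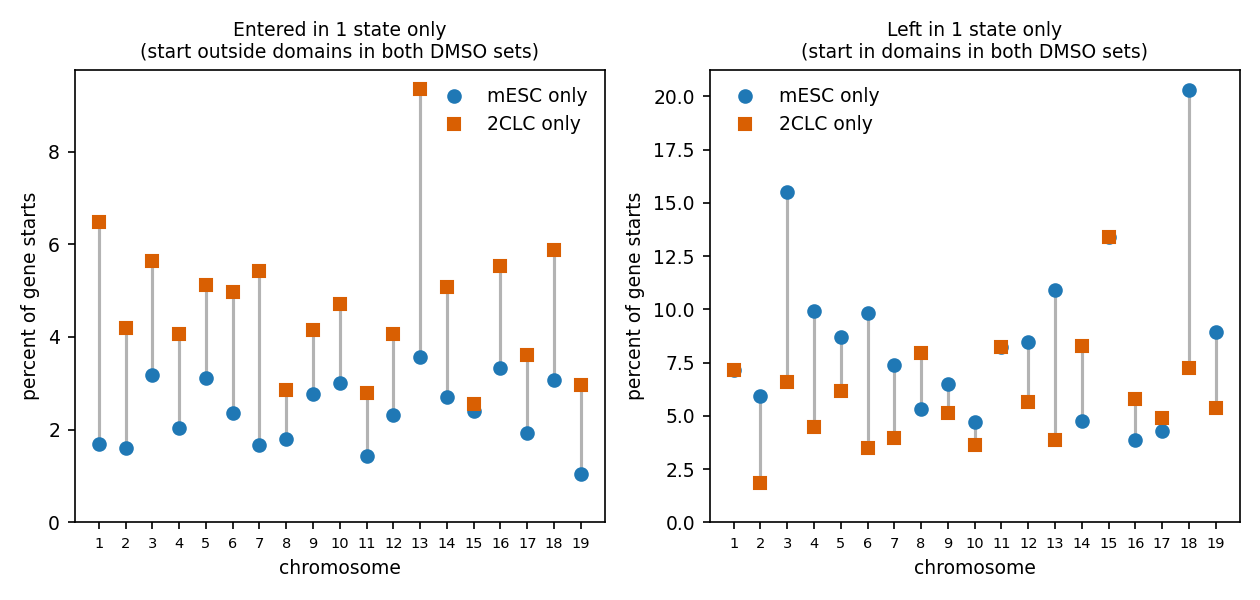
Percent of gene starts that moved in 1 state only, for each of chromosomes 1 to 19, with mESCs as circles and 2CLCs as squares. On the left, of the starts outside domains in both DMSO lists, entry in 2CLCs only is above entry in mESCs only on every chromosome, and on the right, of the starts in domains in both DMSO lists, departure in mESCs only is above departure in 2CLCs only on 12 of 19.

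Discordant starts lay close to domain edges. The lists are laid out on bins of 5 kb. Median clearance was 3.96 kb for the 2944 discordant starts, 4.91 kb for the 912 that moved the same way and 77.2 kb for those that stayed in in both states. A clearance under 1 bin was found for 1668 discordant starts (56.7%) and for 462 (50.7%) of those that moved the same way. A clearance of 10 kb or more was held by 765 discordant starts, 26.0% of them and 3.68% of all starts. The median over the 12 discordant classes ran from 2.15 kb, for starts that entered in mESCs and left in 2CLCs, to 5.69 kb, for those that left in mESCs and stayed out in 2CLCs.

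**Figure D3:**
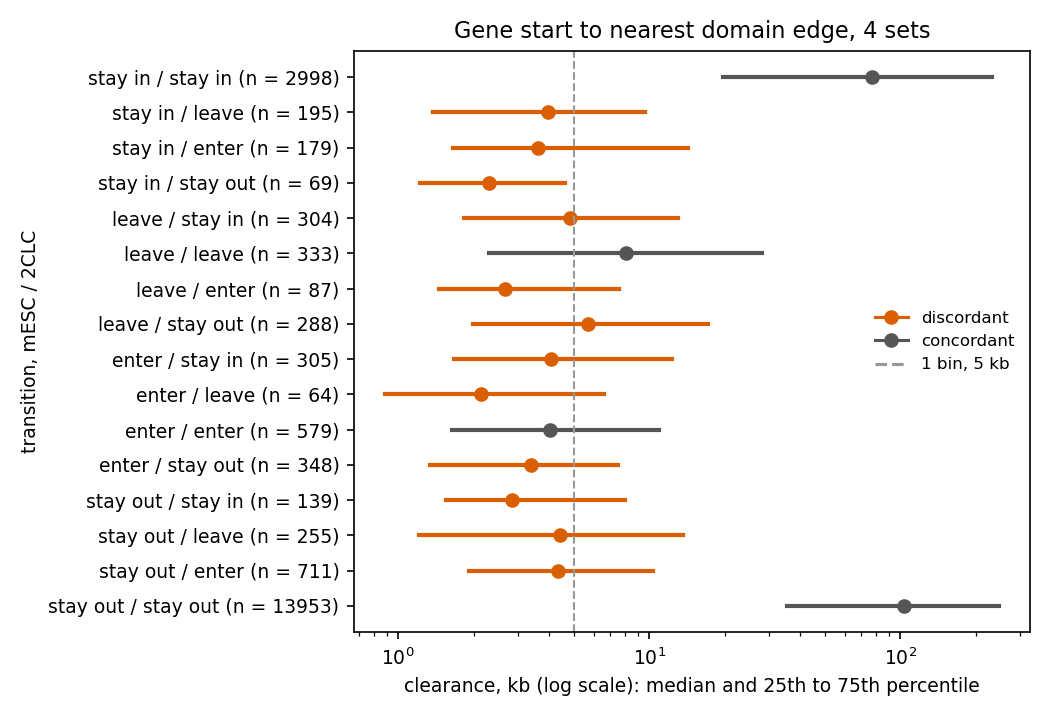
Clearance of gene starts in kb on a log axis for the 16 combinations of mESC and 2CLC transition, with a point at the median and a line from the 25th to the 75th percentile. Discordant classes (orange) have medians from 2.15 to 5.69 kb, near the 5 kb bin (dashed), against 77.2 kb for starts that stayed in and 104 kb for starts that stayed out in both states.

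The way starts left a domain differed between classes. Among starts that left in mESCs and stayed in in 2CLCs, the whole DMSO domain was lost in mESCs, with no base shared with a dTAG domain, for 20 of 304 (6.58%), and their DMSO domains had a median width of 375 kb. Among those that left in 2CLCs and stayed in in mESCs, the whole domain was lost for 5 of 195 (2.56%), with a median width of 490 kb. Where the other state was outside domains under both treatments, loss of the whole domain was more frequent, with 69 of 288 (24.0%) in mESCs and 61 of 255 (23.9%) in 2CLCs, and the domains were narrower, with medians of 185 and 160 kb. Where the other state entered, the whole domain was lost for 21 of 87 (24.1%, median width 170 kb) that left in mESCs but for 1 of 64 (1.56%, median width 322.5 kb) that left in 2CLCs. Starts that entered in 1 state only did so in narrow domains, with a median width of 65 kb for mESCs only and 60 kb for 2CLCs only. The median was also 60 kb for starts that entered in both states.

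Neighbouring genes often shared a class. The 2944 starts formed 1655 runs of adjacent discordant genes and 2276 runs of a single class, and 1093 starts (37.1%) had at least 1 neighbour of the same class in their run. Counts of genes below are therefore not counts of separate loci.

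Among the genes with the largest clearance in each class, those in domains in both DMSO lists that left in mESCs only included Ryr3, a calcium release channel, Bank1, a scaffold protein of B cells, and Fgf10, a growth factor of limb and lung buds. The Ryr3 start (chr2, 113217096) lay in a domain of 650 kb in mESC DMSO and in domains of 425 and 200 kb in 2CLCs under DMSO and dTAG, and was 79.3 kb from the nearest domain in mESC dTAG. Bank1 (chr3, 136326066) lay in domains of 760, 750 and 265 kb in the same lists and 91.7 kb from the nearest domain in mESC dTAG. At Fgf10 (chr13, 118669791) the domains were 310, 935 and 255 kb wide and the distance in mESC dTAG was 77 kb. In all 3 the 2CLC domain was narrower under dTAG than under DMSO but still held the start. Rarb, a retinoic acid receptor, showed the same pattern with a clearance of 22.0 kb.

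The reverse was seen at Adgrl4, an adhesion receptor of endothelial cells, Kynu, an enzyme of tryptophan breakdown, and Thsd7b, a thrombospondin repeat protein, which left in 2CLCs only. The Adgrl4 start (chr3, 151437887) lay in domains of 2980 and 390 kb in mESCs under DMSO and dTAG and of 2520 kb in 2CLC DMSO, and was 139 kb from the nearest domain in 2CLC dTAG. Kynu (chr2, 43555329) lay in domains of 1565, 120 and 2145 kb and then 32.4 kb outside. Thsd7b (chr1, 129273302) lay in domains of 1625, 1530 and 470 kb and then 31.7 kb outside. Here the domains broke up or withdrew from the start in 2CLCs, and in mESCs they shrank to different degrees around it.

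Entry in mESCs only was clearest at Plagl1, an imprinted zinc finger gene, Cnot6l, a deadenylase of the CCR4-NOT complex, and Htr5b, a serotonin receptor. The Plagl1 start (chr10, 13060504) lay in a domain of 120 kb in mESC dTAG and was 50.5 kb from the nearest domain in mESC DMSO and 129 and 50.5 kb in 2CLCs under DMSO and dTAG. Cnot6l (chr5, 96164171) lay in a 90 kb domain and was 33.0, 88.0 and 33.0 kb away in those lists. Htr5b (chr1, 121528465) was taken into the edge of a 3080 kb domain. The Plagl1 domain of mESC dTAG took in a narrow domain already present in mESC DMSO.

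Entry in 2CLCs only, the largest discordant class, had Fbxw28, an F-box gene, and Birc3, an inhibitor of apoptosis, among its clearest starts. The Birc3 start (chr9, 7873186) lay in a domain of 110 kb in 2CLC dTAG and was 117 and 213 kb from the nearest domain in mESCs under DMSO and dTAG and 168 kb in 2CLC DMSO. Fbxw28 (chr9, 109339659) lay in a 155 kb domain and was 66.8, 66.8 and 227 kb away. For both of them the start was far from every domain of the other lists, the nearest being the mESC domains beside Fbxw28.

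**Figure D4:**
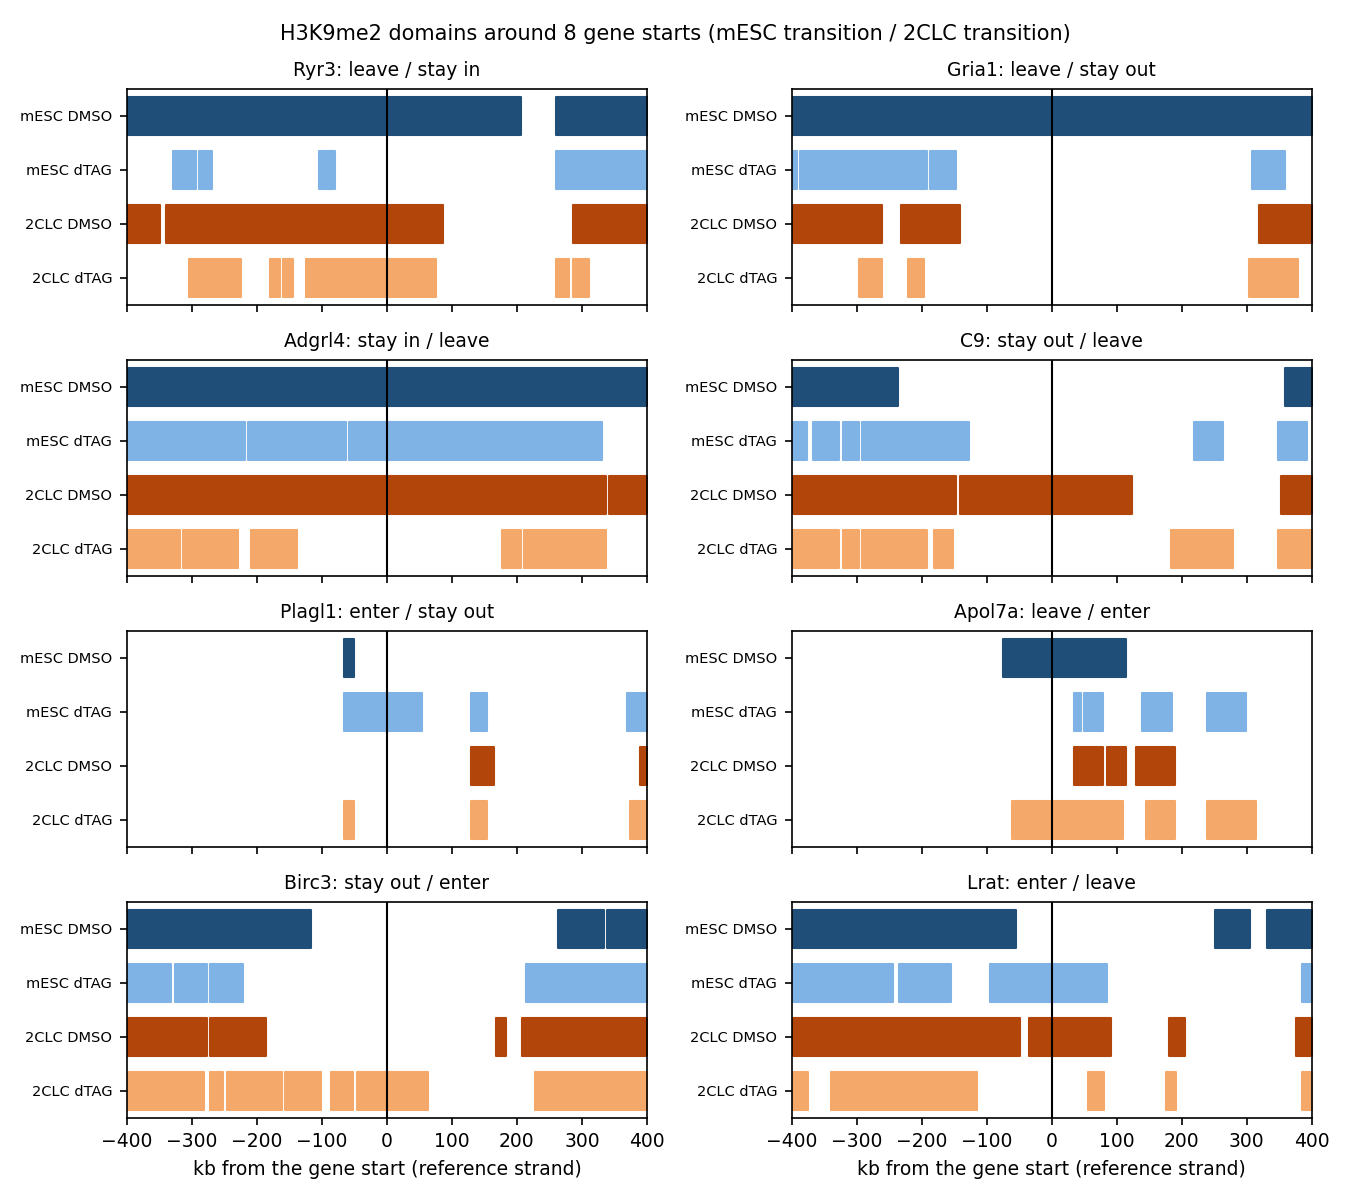
Domains within 400 kb on each side of 8 discordant gene starts in the 4 lists, with the start at 0 and the transition in mESCs and then in 2CLCs in each title. Bars are domains, cut at the panel's edge, and each start lies inside a bar in the lists its title implies, such as mESC DMSO alone for Gria1 and 2CLC DMSO alone for C9.

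States that differed under DMSO and matched under dTAG gave the widest clearances. Lypd1, which encodes a modulator of nicotinic receptors, Lrtm1, a leucine-rich repeat membrane protein, and Gria1, an AMPA receptor subunit, were in a domain in mESC DMSO alone. The Lypd1 start (chr1, 125913101) lay in a domain of 1050 kb in mESC DMSO and was 243, 543 and 393 kb from the nearest domain in mESC dTAG, 2CLC DMSO and 2CLC dTAG. Gria1 (chr11, 57011387) lay in a domain of 1295 kb and was 147, 142 and 197 kb away. Lrtm1 (chr14, 29018208) lay in a domain of 875 kb and was 357, 202 and 142 kb away. At these 3 starts the 2CLCs lacked a domain before EHMT2 was depleted.

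Starts in a domain in 2CLC DMSO alone included C9, a complement component, Tfec, a basic helix-loop-helix transcription factor, and Sp110, a nuclear body protein. The C9 start (chr15, 6445327) lay in a domain of 265 kb and was 237, 127 and 152 kb from the nearest domain in mESC DMSO, mESC dTAG and 2CLC dTAG. For Tfec (chr6, 16898441) the domain was 1290 kb wide and the distances were 87.1, 92.9 and 97.9 kb. Sp110 (chr1, 85598817) lay in a domain of 750 kb and was 879, 256 and 256 kb away. All 3 starts lost a domain in 2CLCs that neither mESC list had.

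Other starts came to match by entry in 1 state. Prl2c3, a placental prolactin-family gene, Vmn1r118, a vomeronasal receptor, and Cd28, a costimulatory receptor of T cells, were outside domains in mESC DMSO alone, at 268, 113 and 51.7 kb from the nearest domain. Zfp993, Fbxw16 and Zfp935 were outside domains in 2CLC DMSO alone, at 1736, 117 and 95.6 kb. Each of these 6 starts lay in a domain of both dTAG lists.

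Opposite moves were made by 151 starts, 0.726% of all, of which 87 left in mESCs and entered in 2CLCs and 64 did the reverse. They lay at the edges more than most, since 22 of the 151 had a clearance of 10 kb or more. Of the first kind, Rsph3b, a radial spoke gene, lay in domains of 170 kb in mESC DMSO and 175 kb in 2CLC dTAG and was 578 and 1378 kb from the nearest domain in mESC dTAG and 2CLC DMSO. Apol7a, an apolipoprotein L gene, lay in domains of 190 and 170 kb and 34.5 kb outside in each of the others. Col25a1, a transmembrane collagen gene, lay in domains of 75 and 80 kb and 62.8 and 52.8 kb outside. At these starts the domains of mESC DMSO and 2CLC dTAG had similar widths.

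Of the second kind, Lrat, the enzyme that makes retinyl esters, lay in domains of 180 kb in mESC dTAG and 125 kb in 2CLC DMSO and was 54.6 and 55.4 kb from the nearest domain in mESC DMSO and 2CLC dTAG. Tmem167, a Golgi membrane protein gene, lay in domains of 80 and 830 kb and 36.3 kb outside in the others. Gal3st2c, a sulfotransferase gene, lay in domains of 75 and 190 kb and 29.6 and 15.4 kb outside. Their clearances ran from 15.4 to 34.6 kb.

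A fixed difference between the states, without a move, was found for 69 starts in domains in mESCs only and 139 in 2CLCs only. Nckap5, Olfr1428 and Nipal2 had the largest clearance in the former, at 25.8, 24.1 and 20.5 kb. Kcns2, a potassium channel subunit, Olfr1413 and Dmtf1, a cyclin D-binding transcription factor, had the largest in the latter, at 41.3, 28.8 and 25.5 kb. The Kcns2 start lay in domains of 125 kb in both 2CLC lists and was 71.3 and 81.3 kb from the nearest domain in mESC DMSO and mESC dTAG.

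To show the base composition of starts that moved differently, the promoters of the clearest genes with a RefSeq start within 100 bases of the annotated start are given for 7 classes, from 250 bases before to 50 after the start on the gene's strand (RefSeq, GRCm38.p6), with CG dinucleotides in capitals. Bank1 (chr3:136326017-136326316, minus strand, 3 CG) left in mESCs only and Adgrl4 (chr3:151437632-151437931, plus strand, 8 CG) left in 2CLCs only. Fbxw28 (chr9:109339610-109339909, minus strand, 0 CG) entered in 2CLCs only. Lrtm1 (chr14:29017958-29018257, plus strand, 4 CG) was in a domain in mESC DMSO alone and C9 (chr15:6445096-6445395, plus strand, 1 CG) in 2CLC DMSO alone. Apol7a (chr15:77399061-77399360, minus strand, 7 CG) left in mESCs and entered in 2CLCs, and Lrat (chr3:82903925-82904224, minus strand, 21 CG) did the reverse.
Bank1: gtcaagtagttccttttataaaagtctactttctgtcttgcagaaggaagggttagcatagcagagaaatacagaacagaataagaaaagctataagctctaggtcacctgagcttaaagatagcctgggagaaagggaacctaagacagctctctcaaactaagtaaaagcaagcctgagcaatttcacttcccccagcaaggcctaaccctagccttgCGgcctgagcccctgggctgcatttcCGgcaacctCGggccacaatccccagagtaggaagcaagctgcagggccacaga
Adgrl4: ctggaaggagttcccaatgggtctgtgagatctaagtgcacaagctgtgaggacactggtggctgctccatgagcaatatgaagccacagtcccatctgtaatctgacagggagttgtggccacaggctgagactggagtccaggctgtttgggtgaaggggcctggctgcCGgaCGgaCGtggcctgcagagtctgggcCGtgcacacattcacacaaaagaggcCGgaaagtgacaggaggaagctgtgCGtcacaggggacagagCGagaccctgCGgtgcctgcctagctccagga
Fbxw28: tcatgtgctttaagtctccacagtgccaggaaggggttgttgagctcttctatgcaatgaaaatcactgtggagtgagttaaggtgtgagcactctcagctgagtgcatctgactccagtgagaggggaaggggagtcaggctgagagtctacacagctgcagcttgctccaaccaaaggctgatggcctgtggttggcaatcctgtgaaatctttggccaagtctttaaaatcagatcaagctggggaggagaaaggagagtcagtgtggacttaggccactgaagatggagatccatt
Lrtm1: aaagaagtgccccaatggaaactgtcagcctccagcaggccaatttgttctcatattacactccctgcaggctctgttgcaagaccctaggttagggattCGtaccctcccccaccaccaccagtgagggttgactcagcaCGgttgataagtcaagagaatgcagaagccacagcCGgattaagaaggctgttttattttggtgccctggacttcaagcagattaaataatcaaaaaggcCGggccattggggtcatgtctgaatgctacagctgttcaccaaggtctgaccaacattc
C9: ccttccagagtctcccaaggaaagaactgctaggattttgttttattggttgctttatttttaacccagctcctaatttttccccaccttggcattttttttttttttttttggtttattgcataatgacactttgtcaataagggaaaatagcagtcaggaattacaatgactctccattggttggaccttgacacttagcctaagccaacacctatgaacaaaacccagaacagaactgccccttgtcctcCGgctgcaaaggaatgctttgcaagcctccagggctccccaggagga
Apol7a: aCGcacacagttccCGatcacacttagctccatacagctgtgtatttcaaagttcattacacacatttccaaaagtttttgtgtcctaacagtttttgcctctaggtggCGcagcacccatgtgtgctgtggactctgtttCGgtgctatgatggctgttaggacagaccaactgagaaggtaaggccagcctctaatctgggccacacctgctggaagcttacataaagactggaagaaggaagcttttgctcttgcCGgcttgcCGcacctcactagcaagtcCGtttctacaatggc
Lrat: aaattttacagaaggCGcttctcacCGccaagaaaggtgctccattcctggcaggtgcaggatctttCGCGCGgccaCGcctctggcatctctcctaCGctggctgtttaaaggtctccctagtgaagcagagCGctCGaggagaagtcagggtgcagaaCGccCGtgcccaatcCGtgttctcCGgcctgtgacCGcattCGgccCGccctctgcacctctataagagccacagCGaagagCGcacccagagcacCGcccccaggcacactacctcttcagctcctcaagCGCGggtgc
CG was found in 94.6% of the 32851 promoters of the RefSeq table, with a median of 7 a promoter and an interquartile range of 3 to 20. Of these 7 promoters, that of Lrat alone was above this range, and those of Fbxw28 and C9 were below it.

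Among starts with the same position in both DMSO lists, the CG content of the promoter differed more between departures and entries than between the states. A ratio of observed to expected CG of at least 0.6 in the 300 bases around the start was found for 17.4% (13.6 to 22.1%) of starts that left in mESCs only, 10.8% (7.2 to 15.9%) of those that left in 2CLCs only and 12.3% of those that left in both. For starts outside domains under DMSO the shares were 54.6% (49.3 to 59.8%) for entry in mESCs only, 50.5% (46.8 to 54.2%) for 2CLCs only and 51.6% for both. Over all starts the share was 45.5%, but it was 6.47% for starts that stayed in and 56.3% for starts that stayed out in both states. Departures were thus above the starts that stayed in (5.64 to 7.41%), though for 2CLCs only the intervals overlapped, and entries were not above those that stayed out. This depended on clearance. At 10 kb or more the share was 9.68% of 93 departures in mESCs only and 4.35% of 46 in 2CLCs only. For entries it was 63.3% of 60 in mESCs only and 42.7% of 185 in 2CLCs only. Starts that stayed in or stayed out were not split by clearance. Median GC content within 5 kb on each side was 41.5% and 41.0% for departures in mESCs only and 2CLCs only, and 45.0% and 45.1% for entries, against 39.2% for starts that stayed in and 47.6% for starts that stayed out in both. In these classes, with starts of any clearance, the intervals of the CG shares of the 2 states overlapped for departures and for entries. At a clearance of at least 10 kb the entry shares, 63.3% and 42.7%, were further apart. In some of the classes whose position differed under DMSO the states were further apart. The share was 22.9% (18.4 to 28.1%) for starts in a domain in mESC DMSO alone and 34.1% (28.6 to 40.1%) for those in 2CLC DMSO alone. With a clearance of at least 10 kb these shares were 17.6% and 22.8%. For starts outside domains in mESC DMSO alone the share was 38.7% (33.4 to 44.3%). For those outside in 2CLC DMSO alone it was 31.3% (24.9 to 38.4%), and these intervals overlapped. The share was 19.5% (12.6 to 29.1%) for starts that left in mESCs and entered in 2CLCs and 54.7% (42.6 to 66.3%) for the reverse.

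Members also had few gene neighbours. The median number of other protein-coding starts within 500 kb was 10 for discordant starts and 16 for all starts, but it was also 10 for starts that left in both states and 13 for those that entered in both. It was 7 for starts in a domain in mESC DMSO alone and 7 for those in 2CLC DMSO alone, with median gene lengths of 31.6 and 31 kb against 17.6 kb over all genes.

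Of the gene groups examined, those of 2CLCs themselves were divided. All 8 Zscan4, 7 Obox, 5 Tdpoz and 5 Usp17l genes stayed in domains in both states. Of 11 Pramel and Pramef genes, 3 were discordant, Pramef8, Pramef20 and Pramef12, with clearances of 3.00, 1.49 and 0.962 kb. Of 16 other 2CLC genes, 6 were discordant, 37.5% against 14.1% of all starts. Of those in a domain of any list the share was 46.2%, close to the 43.0% of all such starts. Dppa2, an activator of the 2CLC programme, entered in mESCs only with a clearance of 14.1 kb, and its neighbour and partner Dppa4 entered in mESCs and was in a domain in 2CLCs throughout, with a clearance of 1.12 kb. Duxf3, a copy of the Dux activator, lay in a domain of 425 kb in 2CLC DMSO alone, like Sp110, with a clearance of 17.2 kb. Within 5 kb of the Duxf3 start, 63.35% of 31-base words of the sequence occurred more than once on the chromosome. Rfpl4 entered in mESCs and stayed in in 2CLCs, and Tcstv1 entered in 2CLCs only, both with a clearance under 1 bin. The Tcstv1 start lay in gaps of 10, 5 and 10 kb in mESC DMSO, mESC dTAG and 2CLC DMSO. In mESCs 5 starts of this group lay in domains under DMSO and 10 under dTAG, and in 2CLCs 9 and 10 did.

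Among 31 genes of the H3K9 methylation machinery, 3 were discordant, or 9.68% (50% of those in any list), and none of them was far from an edge. The shares for all genes were 14.1% and 43.0%. Setdb1, an H3K9 methyltransferase, entered in mESCs only and lay 2.18 kb outside in 2CLC dTAG. Kdm4c, an H3K9 demethylase, left in 2CLCs only, and Cdyl, a reader of H3K9 methylation, lay in a domain in 2CLC DMSO alone, with clearances of 2.02 and 1.93 kb. In mESC DMSO the Cdyl start lay in a gap of 5 kb between domains. Of 28 pluripotency genes only Fgf5, a marker of exit from naive pluripotency, was discordant, entering in 2CLCs only with a clearance of 1.98 kb. No start of the 39 Hox genes lay in any of the 4 lists.

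Members of the retinoic acid pathway were discordant at 5 of 36 genes, or 13.9%, close to the share of all starts. They were discordant at 50% of those in any list, beside 43.0% for all genes. Rdh13, Stra6l and Rbp2 entered in 2CLCs only, Rarb left in mESCs only, and Rdh7 was in a domain in mESC DMSO alone. Because TTNBP acts on this pathway, these genes are given by name, and the agonist's part in their positions was not tested.

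Zinc finger genes were discordant at 116 of 420 starts, or 27.6%, in 77 runs, and at 54.7% of those in any list. The shares for all genes were 14.1% and 43.0%. Under DMSO 84 lay in domains in mESCs and 81 in 2CLCs, and under dTAG 174 and 178. Of those outside domains in both DMSO lists, 47 entered in both states, 22 in mESCs only and 29 in 2CLCs only. A further 30 stayed in in mESCs and entered in 2CLCs, and 22 did the reverse. More starts of the group thus lay in domains under dTAG than under DMSO in both states, at partly different genes. The longest run of members, 22 adjacent genes from Zfp990 to Zfp933 on chromosome 4, belonged here. Its zinc finger genes, such as Zfp993 and Zfp981, are among the 30 that stayed in in mESCs and entered in 2CLCs. The 30 are therefore not separate loci, and their number beside the reverse rests in part on this stretch. All starts of the run were in domains in mESC DMSO, mESC dTAG and 2CLC dTAG and none in 2CLC DMSO, where the gap around them was 11035 kb wide. Repeated sequence is high in this stretch, with 77% of its 31-base words occurring more than once on the chromosome and 18.5% of its bases unknown in the assembly, and the part of either in the gap was not tested.

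Most histone genes, 52 of 75, stayed out in both states, and those that moved all entered in 2CLCs. None of the 75 lay in a domain in either DMSO list, 7 entered in both states, 16 entered in 2CLCs only and none in mESCs only. These 16 were 21.3% of the group and 69.6% of its starts in any list, beside 14.1% and 43.0% discordant for all genes. A clearance of 10 kb or more was held by 4 of the 16. The 16 formed 3 runs, so that they rest on few stretches, on chromosome 13 for Hist1h2ah, Hist1h2bk, Hist1h4i and Hist1h4d. Hist1h2ah, Hist1h2bk and Hist1h4i came into the edge of a 1080 kb domain in 2CLC dTAG, and Hist1h4d into a domain of 115 kb.

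Clustered protocadherins, cell adhesion genes of neurons, were discordant at 18 of 57 starts, or 31.6%, and at 60% of those in any list. The shares for all genes were 14.1% and 43.0%. The 18 starts formed 8 runs, and 4 starts had a clearance of 10 kb or more. In mESCs 12 lay in domains under DMSO and 29 under dTAG, and in 2CLCs 6 and 23 did. A run of 9 starts, from Pcdha5 on, was in domains in all but 2CLC DMSO, where they fell in a gap of 80 kb. A further 6 protocadherins entered in mESCs only and none in 2CLCs only.

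Receptor families of sensory neurons were mostly in domains throughout. Of 1128 olfactory receptors 154 were discordant, or 13.7% (14.4% of those in any list), with 43 leaving in mESCs only and 30 in 2CLCs only. The shares for all genes were 14.1% and 43.0%. Olfr530, one of those that left in mESCs only, had a clearance of 41.9 kb. Of 327 vomeronasal receptors 25 were discordant, or 7.65%, and 18 of these entered in mESCs and stayed in in 2CLCs, among them Vmn1r116 to Vmn1r119 on chromosome 7, which share a gap of 300 kb in mESC DMSO. In the run around these genes 93.4% of 31-base words recurred on the chromosome.

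Of the genes of neuronal signalling, neurotransmitter receptors were discordant at 29 of 98 starts (29.6%), ion channels at 38 of 167 (22.8%) and neuronal adhesion and guidance genes at 34 of 136 (25%), beside 14.1% of all starts. Of those in any list the shares were 72.5%, 73.1% and 54.8%, beside 43.0%. A clearance of 10 kb or more was held by 8 of the 29, 9 of the 38 and 4 of the 34. Of the ion channels, 10 were in a domain in mESC DMSO alone and 9 in 2CLC DMSO alone, while the number in domains went from 30 to 20 in mESCs and from 34 to 19 in 2CLCs. Grin2b, a glutamate receptor gene like Gria1, was also in a domain in mESC DMSO alone, with a clearance of 37.3 kb, as were Ntm, a neural adhesion gene, and Ano2, a chloride channel. Trpm3, a cation channel, was in a domain in 2CLC DMSO alone with a clearance of 57.2 kb, and Trpv5, a calcium channel, left in 2CLCs only.

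Imprinted genes were discordant at 17 of 50 starts, or 34%, and 85.0% of the 20 that lay in any list. The 17 starts formed 10 runs, and 5 had a clearance of 10 kb or more. For all genes the shares were 14.1% and 43.0%. Plagl1 and 2 others entered in mESCs only, Mest and 2 others in 2CLCs only, and Atp10a and Nap1l5 were among 3 that left in mESCs only. Another 6 entered in mESCs and were in domains in 2CLCs throughout. Interferon-induced and Sp100 family genes were discordant at 23 of 91 starts (25.3%), with 7 leaving in mESCs only, including Trim34b and Trim12c. Serpins were discordant at 15 of 60 (25%), taste and trace amine receptors at 11 of 53 (20.8%), killer cell and C-type lectin receptors at 11 of 56 (19.6%) and germline and meiosis genes at 15 of 90 (16.7%). The share of all starts was 14.1%. Of those in any list the shares were below the 43.0% of all such starts for serpins (30%), taste and trace amine receptors (23.9%) and killer cell and C-type lectin receptors (22%). They were nearer to it for the interferon-induced and Sp100 family (46%) and for germline and meiosis genes (48.4%).

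Below the share of all starts were solute carriers (46 of 372, 12.4%), mitochondrial ribosomal proteins (9 of 78, 11.5%), placental prolactin, Psg and Ceacam genes (6 of 53, 11.3%), cytochrome P450 genes (10 of 98, 10.2%), keratins (11 of 110, 10.0%), secreted signals of development (8 of 88, 9.09%), developmental transcription factors (12 of 179, 6.70%), cytosolic ribosomal proteins (5 of 78, 6.41%) and defensins (3 of 64, 4.69%). The order was another one for the starts in any list, beside 43.0% of all such starts. There the share was above it for mitochondrial ribosomal proteins (75%), secreted signals (72.7%), developmental transcription factors (60%), solute carriers (56.8%) and cytosolic ribosomal proteins (50%). It was below it for keratins (29.7%), cytochrome P450 genes (14.5%), placental prolactin, Psg and Ceacam genes (12.8%) and defensins (6.25%). Among secreted signals Fgf2 entered in 2CLCs only, Fgf7 was in a domain in mESC DMSO alone and Fgf12 in 2CLC DMSO alone. Developmental transcription factors mostly lay outside every list, and those discordant included Tbx19, Lhx8 and Sox14, which entered in 2CLCs only, and Foxp2, which entered in mESCs and was in domains in 2CLCs throughout. The Foxp2 start lay in a gap of 10 kb between domains in mESC DMSO. Of the 12 discordant factors, 1 had a clearance of 10 kb or more. All cytosolic ribosomal protein starts among the members were entries, Rpl37, Rps27a and Rpl22l1 in mESCs only and Rps23 and another in 2CLCs only.

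**Figure D5:**
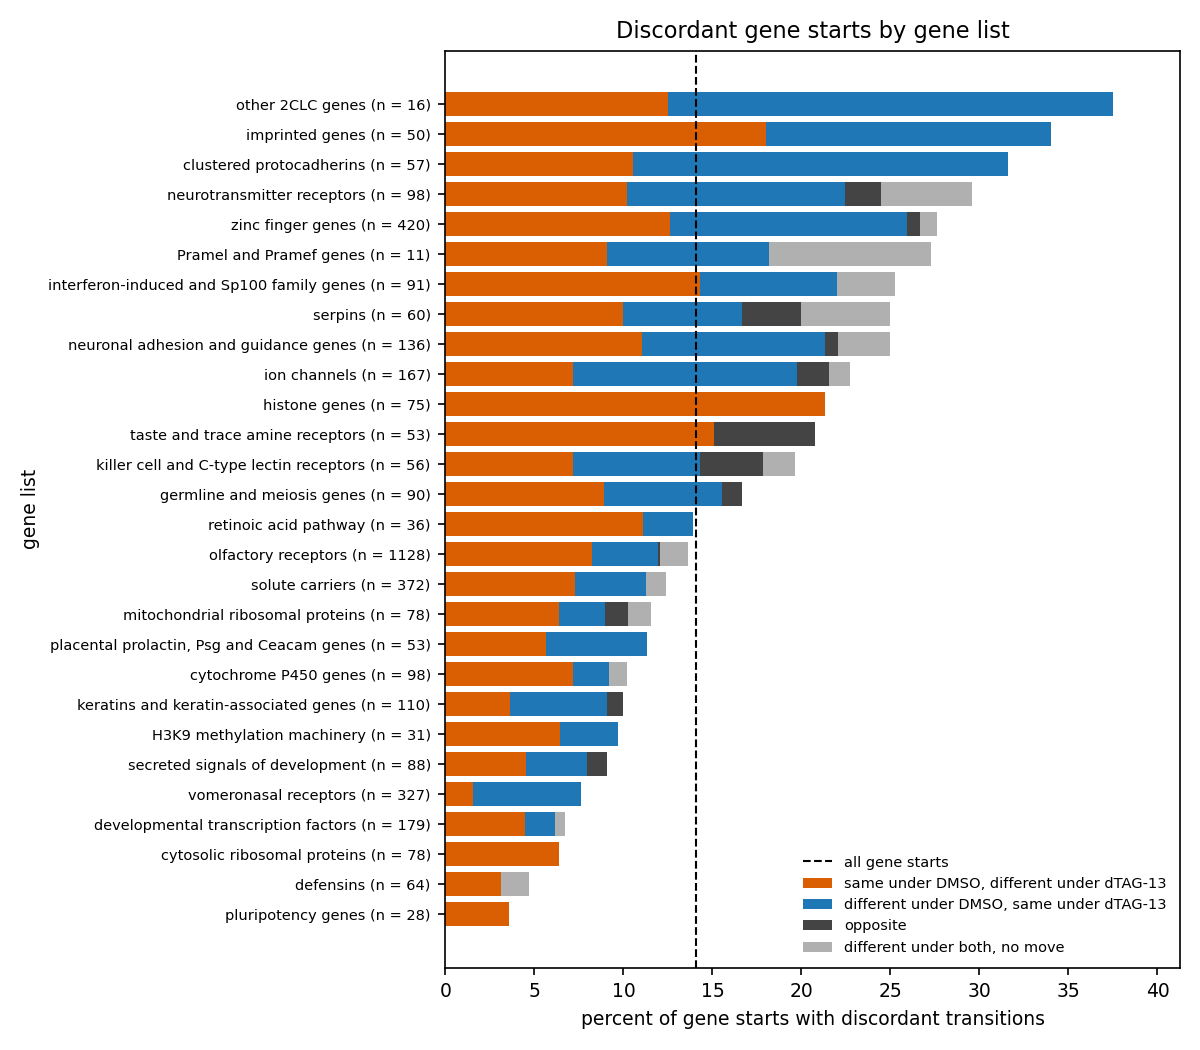
Percent of all gene starts of a list, in domains or not, with discordant transitions for the 28 gene lists with at least 1 member, split by kind of discordance, with the share of all starts (14.1%) dashed. Other 2CLC genes (37.5%), imprinted genes (34%) and clustered protocadherins (31.6%) have the highest shares, and histone genes hold a single kind, same under DMSO and different under dTAG-13.

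Repeated sequence went with some of the widest differences. Within 5 kb of the start, at least 50% of 31-base words recurred on the same chromosome for 176 discordant starts (5.98%) and for 4.88% of all starts. The share was 18.4% for starts that stayed in in mESCs and entered in 2CLCs, and 2.39% for those that entered in 2CLCs only, beside 19.2% for starts that stayed in and 17.1% for starts that left in both states. Of the genes named above by clearance, Zfp993 (97.5% of words), Vmn1r118 (98.0%), Fbxw28 (85.6%), Sp110 (78.9%), Prl2c3 (78.4%), Rsph3b (67.8%), Zfp935 (63.8%) and Gal3st2c (54.9%) lay in such sequence, while Lypd1 (0.48%), C9 (1.34%), Plagl1 (1.73%), Ryr3 (2.00%) and Gria1 (3.43%) did not. The 2CLC genes Duxf3 (63.35%) and Tcstv1 (68.62%) also lay in such sequence. The second longest run, 13 genes from Gm3248 to Gm3594 on chromosome 14 that were in a domain in 2CLC DMSO alone, had 93.3% of words recurring. Without the starts in repeated sequence, a choice made after seeing the data, 2768 discordant starts remained of 19791, with 694 entering in 2CLCs only and 339 in mESCs only. The part of read assignment in the positions of the others was not tested.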

How the data were processed

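H3K9me2 was measured by ULI-NChIP in sorted mESCs and 2CLCs. The values used are the start and end positions of domains that the authors deposited as other data, 1 list for each condition, with no score in use and no value per library. Per the labels, the authors used STAR 2.7.10, Picard 2.26.0, SAMtools 1.14, bedtools 2.30.0, deepTools 3.5.1 and R 4.1.2 with the mm10 build. Bins above a high percentile of the log2 ratio of precipitated to input coverage were extended until a low percentile. Pooling of the replicates ahead of domain calling is not given in the sources used here. The authors' list with no state or treatment in its name was not used.

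Gene starts were the 5' ends of protein-coding genes of GENCODE M21 (GRCm38), and no domain passed a chromosome end of GRCm38.p6. A start was in a domain if its base was. Python 3.11.15, numpy 2.4.6 and scipy 1.17.1 were used. Counting was tested on simulated data with planted classes at 504 gene starts of chromosome 19, and 100% were recovered. Each list is 1 sample, so no test was made, and shares carry Wilson 95% intervals. GC content and soft-masked sequence were taken within 5 kb of the start, and 31-base words were counted on both strands within a chromosome.

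The members and the 33 gene lists were chosen with earlier results of these data known. The genes named were the 3 of each of 12 classes with the largest clearance (36 in all, 1 per run of adjacent discordant genes, clone names left out), the 3 longest runs of a class, up to 4 discordant genes a list by clearance, and every discordant gene of the H3K9 machinery and 2CLC lists. Some genes that this rule names are not reported here. Alternatives were a minimum domain width of 50 kb, domains shortened by 5 kb, domains within 10 kb joined, 50% of the gene body in place of the start, a clearance of at least 10 kb, all annotated genes, 1 start per 50 kb, chromosome X added and each chromosome left out.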

Additional observations from a re-analysis of the deposited data

Results flagged for a closer look

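Opposite moves of a gene start in the 2 states were picked out because the only list of each condition moved one way in mESCs and the other way in 2CLCs. There were 87 starts that left in mESCs and entered in 2CLCs and 64 that entered in mESCs and left in 2CLCs. With 1 list per condition the difference was not tested, and 12 of the former and 10 of the latter had a clearance of 10 kb or more.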

How the results depend on the processing

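No paired analysis was possible because each condition has a single list of domains. Of 135 values under 9 alternatives other than chromosomes left out, 88 stayed within 1.5 times the count reported or within the interval of the share and 47 moved. Only the differences between the states in entries and in departures have a direction. Neither changed it, and entries in 1 state only were more frequent in 2CLCs and departures in mESCs under each alternative. A clearance of at least 10 kb left 765 discordant starts, 709 that moved in 1 state only, 22 opposite, 310 that moved the same way and 34 fixed differences, with 60 entries in mESCs only and 185 in 2CLCs only (a difference of 125) and 93 departures in mESCs only and 46 in 2CLCs only (a difference of 47), and shared moves of 42% of mESC leavers, 50.2% of mESC enterers and 53.3% of 2CLC leavers. With all annotated genes there were 8537, 7534, 400, 2879 and 603 starts of these kinds, 781 and 1605 entries (a difference of 824) and 1076 and 731 departures (a difference of 345), and 37.4% of mESC leavers and 47.7% of 2CLC leavers moved alike. With 1 start per 50 kb the counts were 1942 discordant, 1685 in 1 state only and 544 the same way, with 209 and 430 entries (a difference of 221), 193 departures in mESCs only, 56 more than in 2CLCs, and shared entry of 41.2% of mESC and 34.2% of 2CLC enterers. Gene bodies gave 92 opposite moves and shared departure of 36.9% and 47.3%. Domains of at least 50 kb gave shared entry of 33.8% and 30.3% and a difference of 191 entries, and shortened domains 36.2%, 32.5% and 223. Without starts in repeated sequence 30.03% of mESC leavers also left in 2CLCs, and without a chromosome that share ran from 29.7% (chromosome 14) to 33.8%. Of the 36 genes named by class, 28 kept their class with gene bodies, and since they were chosen for a large clearance the alternatives that move domain edges say nothing about them.

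Of the 2944 discordant starts, 76.2% kept their class with domains of at least 50 kb, 64.6% with shortened domains and 46.3% with gene bodies. The depth behind the lists is unknown, and 56.7% of the members lay within a bin of an edge. No spread between cultures was at hand for any count, and the words repeated on other chromosomes were not counted.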
